A study of Sus scrofa with 6 samples.

Results

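Immediate early genes were followed across 6 RNA-seq libraries of newborn piglet liver. The set named FOS, FOSB, JUN, JUNB, EGR1, DUSP1, IER2, ATF3, MYC and ZFP36, 10 genes in all. They were found by matching the Ensembl identifiers of the deposited tables to pig gene symbols, which gave 8 of the 10 a row among the 26733 genes listed. FOSB and JUN matched no row and were not analysed here. Of the 8, 7 reached 1 FPKM (a level per kilobase of transcript, scaled to sequencing depth) in at least 3 libraries and were tested, while ZFP36 did not. The genes were chosen by name with their FPKM values in these 6 libraries already known, so the levels below are a description.

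The piglets were born to sows on 1 of 2 daily tryptophan schedules, and both groups were Landrace x Yorkshire crosses. High-Low sows ate a diet with 0.39% tryptophan in the morning and 0.13% in the afternoon, whereas 2xTrp sows received 0.26% at both meals. Each maternal diet had 3 libraries of flash-frozen newborn liver. Animals and litters are not named in the labels, and p-values therefore cover the spread between these 6 libraries alone, which could be technical.

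Immediate early genes are switched on within minutes of a signal, without the need for new protein, when kinases of the MAPK cascade activate factors such as SRF, ELK1 and CREB that already sit in the cell. Their mRNAs are short-lived, and many of the proteins are transcription factors or inhibitors that shut the signal off again. In liver they are known for their rapid induction by growth factors, hormones, cytokines and partial hepatectomy.

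High-Low 2 and 2xTrp 1 carried the highest levels of these genes, 1 in each maternal diet. High-Low 2 was the highest High-Low library for 7 of 7 tested genes, against 42.9% of all 10901 genes tested, and 2xTrp 1 was the highest 2xTrp library for 7 of 7, against 35.9%. Both orders held for 16.5% of all genes. Summed over the 8 genes with a row, the libraries stood at 140.3, 684 and 144 FPKM in High-Low 1, 2 and 3 and at 381, 126 and 136 FPKM in 2xTrp 1, 2 and 3. The groups overlapped in all 7 genes. Between the diets 0 of the 7 passed an adjusted p of 0.05 in limma and 0 had an unadjusted p under 0.05, while over all genes tested 0.00917% passed the first threshold and 3.16% the second.

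**Figure D1:**
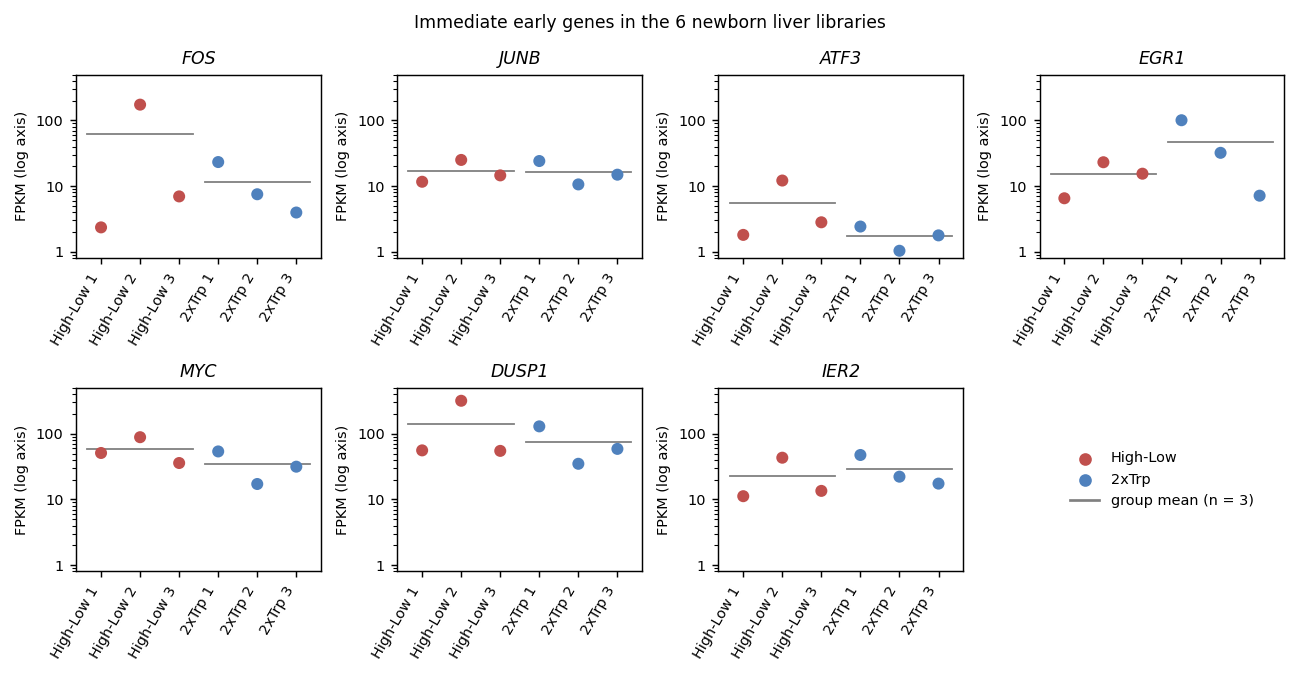
Level in FPKM (log axis, the same in every panel) of the 7 immediate early genes that were tested, by library, with High-Low in red, 2xTrp in blue and a line at each group mean (n = 3). High-Low 2 and 2xTrp 1 are the highest libraries of their own group in every panel, and FOS reaches 174 FPKM in High-Low 2.

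Among the AP-1 factors, FOS varied most. FOS, which pairs with JUN proteins to form AP-1, is annotated on chromosome 7 from 104293657 to 104297121 (plus strand, susScr3 assembly). It had 2.35, 174 and 6.97 FPKM in High-Low 1, 2 and 3 and 23.3, 7.52 and 3.96 FPKM in 2xTrp 1, 2 and 3. High-Low 2 stood 7.48-fold above the next library, 2xTrp 1, and 73.9-fold above the lowest, High-Low 1, so that the extremes lay in 1 group. JUNB, a partner of FOS on chromosome 2 from 66505144 to 66507024 (plus strand), moved over a much narrower range. It had 11.7, 25.0 and 14.6 FPKM in High-Low 1, 2 and 3 and 24.1, 10.6 and 14.9 FPKM in 2xTrp 1, 2 and 3. High-Low 2 and 2xTrp 1 were nearly level for JUNB, at a ratio of 1.04, and the highest library was 2.36-fold above the lowest. ATF3, a stress-induced factor of the ATF and CREB family on chromosome 9 from 143690556 to 143703872 (plus strand), was the least abundant of the 7. It had 1.81, 12.2 and 2.81 FPKM in the High-Low libraries 1 to 3 and 2.42, 1.04 and 1.78 FPKM in the 2xTrp libraries 1 to 3. High-Low 2 stood 4.32-fold above the next library, which for ATF3 was High-Low 3, and 2xTrp 1 came after it.

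EGR1 and MYC, transcription factors outside AP-1, differed from each other in order. EGR1, a zinc finger factor on chromosome 2 from 146156065 to 146160020 (plus strand), had 6.53, 23.1 and 15.5 FPKM in High-Low 1, 2 and 3 and 101, 32.1 and 7.15 FPKM in 2xTrp 1, 2 and 3. Its highest library was 2xTrp 1, 3.14-fold above 2xTrp 2, with High-Low 2 only after these. MYC, which drives growth and ribosome production, lies on chromosome 4 from 12778444 to 12783481 (minus strand). It had 50.9, 88.6 and 35.8 FPKM in the High-Low libraries 1 to 3 and 53.8, 17.2 and 31.5 FPKM in the 2xTrp libraries 1 to 3. High-Low 2 led MYC by 1.65-fold over 2xTrp 1, which was itself only 1.06-fold above High-Low 1.

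The genes that restrain or follow the signal showed the same 2 libraries on top. DUSP1, a phosphatase that switches MAP kinases off, is annotated on chromosome 16 from 55768409 to 55771513 (plus strand). It was the most abundant member, at 55.8, 318 and 54.8 FPKM in High-Low 1, 2 and 3 and 129.5, 34.9 and 58.8 FPKM in 2xTrp 1, 2 and 3. High-Low 2 exceeded 2xTrp 1 by 2.45-fold, and 2xTrp 1 was followed by 2xTrp 3. IER2, a nuclear protein on chromosome 2 from 66211129 to 66211794 (minus strand), had 11.2, 43.2 and 13.5 FPKM in High-Low 1, 2 and 3 and 47.5, 22.2 and 17.4 FPKM in 2xTrp 1, 2 and 3. 2xTrp 1 was highest for IER2, 1.10-fold above High-Low 2. ZFP36, which promotes the decay of AU-rich mRNAs and lies on chromosome 6 from 43893754 to 43896357 (minus strand), was listed at 0, 0 and 0.0363 FPKM in the High-Low libraries 1 to 3 and at 0.0455, 0 and 0 FPKM in the 2xTrp libraries 1 to 3. An exact 0 in these tables need not mean that the mRNA was absent. NCL (picked out with its values in view), which encodes the abundant nucleolar protein nucleolin, was also listed at 0 in 4 of the 6 libraries. The reason for such values was not tested, and no expression call was made for ZFP36.

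The 7 genes agreed on the highest library within each group. They differed in which of these 2 libraries was higher and in much of the remaining order. Of the 15 pairs of libraries, 6 were ordered the same way by all 7 genes, and each of these 6 involved High-Low 2 or 2xTrp 1. In 2 further pairs all but 1 gene went one way, and in 7 pairs at most 5 did. High-Low 2 and 2xTrp 1 were the 2 highest libraries for 5 of the 7 genes (FOS, JUNB, MYC, DUSP1 and IER2), and 12.3% of all genes tested had these 2 libraries on top. High-Low 2 was the highest of all 6 libraries for 5 of 7 genes and 2xTrp 1 for the other two, against 23.8% and 17.6% of all genes tested. For the other libraries that share was 23.6% in High-Low 1, 9.92% in High-Low 3, 12.6% in 2xTrp 2 and 12.4% in 2xTrp 3. The lowest library was 2xTrp 2 for 4 genes (JUNB, ATF3, MYC and DUSP1) and High-Low 1 for 3 (FOS, EGR1 and IER2).

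High-Low 2 and 2xTrp 1 differed in which members stood out. The ratio of High-Low 2 to 2xTrp 1 was 7.48 for FOS, 5.02 for ATF3, 2.45 for DUSP1, 1.65 for MYC, 1.04 for JUNB, 0.909 for IER2 and 0.229 for EGR1. In FPKM, which are per length, EGR1 was 0.133 times the level of FOS in High-Low 2, whereas in the other High-Low libraries it was 2.78 and 2.22 times that level. In 2xTrp 1, 2 and 3 the EGR1 level was 4.33, 4.27 and 1.81 times that of FOS. High-Low 2 was thus the 1 library with more FOS than EGR1. Averaged over the 7 genes on the log2(FPKM + 1) scale, after subtracting each gene's mean over the 6 libraries, the libraries stood at -0.77, 1.48 and -0.37 in High-Low 1, 2 and 3 and at 0.82, -0.54 and -0.63 in 2xTrp 1, 2 and 3. IER2 and DUSP1 lay closest to the mean profile of the other members (root mean square distances of 0.443 and 0.427), and FOS and EGR1 lay farthest (1.28 and 1.19).

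A wider set of 56 early response genes was read in the same way, again from lists drawn up with earlier results known, and 28 of them had a row and 23 were tested. High-Low 2 was the highest library for 12 of the 23 (52.2%), against 23.8% of all genes tested. 2xTrp 1 was the highest of all libraries for 3 (13.0%), against 17.6% of all genes tested. Within groups, High-Low 2 was the highest High-Low library and 2xTrp 1 the highest 2xTrp library together for 10 of the 23. Both orders held for 16.5% of all genes tested. For 8 of the 23 High-Low 2 and 2xTrp 1 were the 2 highest libraries (34.8%), against 12.3% of all genes tested. The mean centred log2 value of the 23 was -0.31, 0.44 and -0.18 in High-Low 1, 2 and 3 and 0.23, -0.31 and 0.13 in 2xTrp 1, 2 and 3, a smaller spread than that of the 7 members and with 2xTrp 3 above the mean.

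**Figure D2:**
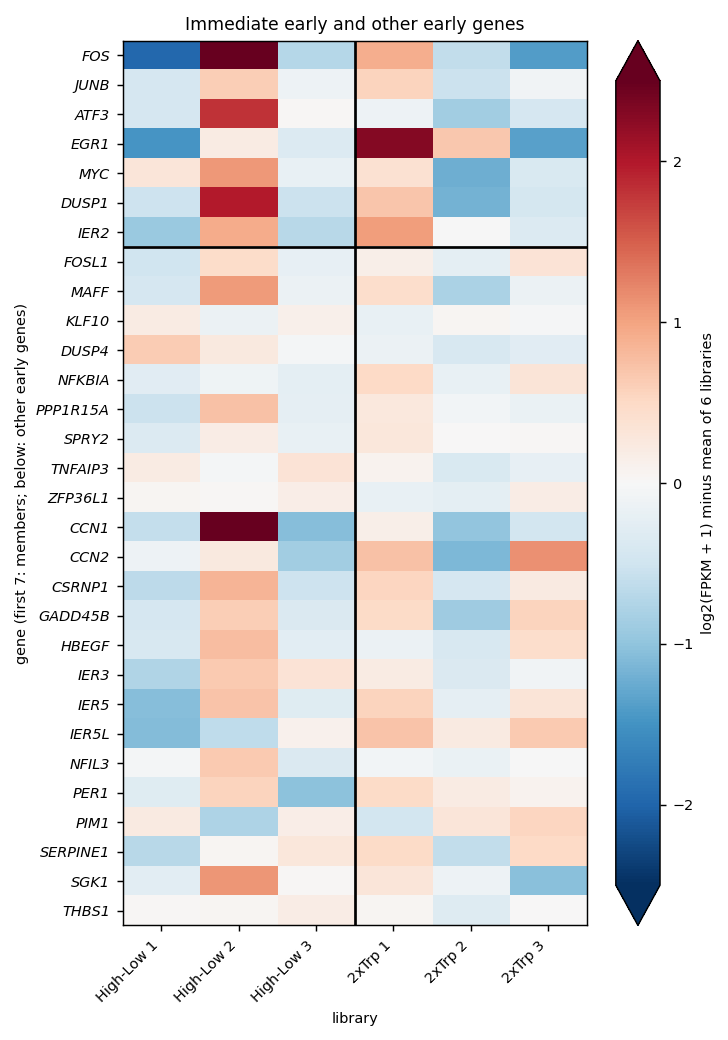
Heat map of log2(FPKM + 1) minus the gene's mean over the 6 libraries, with the 7 immediate early genes above the line, 23 other early response genes below it, and High-Low libraries left of 2xTrp libraries. The High-Low 2 and 2xTrp 1 columns are mostly red in the upper block, FOS and CCN1 go past the colour scale in High-Low 2, and the lower block is paler.

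CCN1, which encodes a secreted matrix protein, came closest to FOS in its range. It had 5.50, 75.1 and 3.72 FPKM in High-Low 1, 2 and 3 and 9.83, 3.96 and 6.16 FPKM in 2xTrp 1, 2 and 3, so that High-Low 2 was 7.64-fold above the next library. Its relative CCN2 peaked in 2xTrp 3 instead, at 34.5 FPKM, with 18.2 FPKM in High-Low 2 and 25.7 FPKM in 2xTrp 1. SGK1, a kinase induced by serum and glucocorticoids, had 17.2, 46.2 and 21.3 FPKM in High-Low 1, 2 and 3 and 25.8, 18.9 and 9.60 FPKM in 2xTrp 1, 2 and 3, with High-Low 2 highest and 2xTrp 1 next.

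Most other members of these gene families were low or without a row, with MAFF as the exception. Of 6 AP-1 relatives 2 were tested, both highest in High-Low 2. MAFF, a small Maf factor, had 10.1, 30.2 and 12.5 FPKM in High-Low 1, 2 and 3 and 19.3, 7.63 and 12.4 FPKM in 2xTrp 1, 2 and 3, while FOSL1 stayed at or under 1.66 FPKM in every library. The EGR and NR4A factors with a row (EGR2, EGR3, NR4A2 and NR4A3) were all below the filter, and their highest value was 0.588 FPKM, in High-Low 2, for NR4A2 (these 4 are outside the rule for naming genes). KLF10, the 1 tested KLF factor, lay between 0.791 and 1.35 FPKM.

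Feedback inhibitors other than DUSP1 varied less. Of 16 listed, 6 were tested, and their mean centred log2 value was -0.04, 0.17 and -0.03 in High-Low 1, 2 and 3 and 0.13, -0.21 and -0.02 in 2xTrp 1, 2 and 3. PPP1R15A, which helps to restart translation after stress, stood at 29.5 FPKM in High-Low 2 and 21.3 FPKM in 2xTrp 1, above all others, which lay between 11.8 and 16.7 FPKM. NFKBIA, the inhibitor of NF-kB, was highest in 2xTrp 1, at 67.7 FPKM. DUSP4, a nuclear MAP kinase phosphatase, was highest in High-Low 1, at 2.40 FPKM.

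Of 23 kinases and factors listed from the cascade upstream of these genes, 15 were tested, and 1 had High-Low 2 and 2xTrp 1 as its highest libraries. SRF itself (picked out with its values in view) was highest of its group in both, at 7.70 FPKM in High-Low 2 and 5.89 FPKM in 2xTrp 1. Its lowest values were 4.74 FPKM in High-Low and 3.58 FPKM in 2xTrp. The receptor MET had its lowest values in these 2 libraries, at 3.16 FPKM in High-Low 2 and 1.69 FPKM in 2xTrp 1, and at least 5.52 FPKM in each of the other 4. EGFR, the epidermal growth factor receptor, was likewise lowest of its group in both, at 3.76 FPKM in High-Low 2 and 2.60 FPKM in 2xTrp 1. MKNK1, a kinase activated by MAP kinases, was lowest in High-Low 2, at 25.6 FPKM, and stood at 89.6 FPKM in 2xTrp 1.

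Gene lists tied to individual members were also read. Of 14 MYC target genes 10 were tested, and their mean centred log2 values stayed within -0.12 and 0.11 in all 6 libraries. For 4 of these 10, High-Low 2 and 2xTrp 1 were the 2 highest libraries, against 12.3% of all genes tested. ODC1, the first enzyme of polyamine synthesis, was highest in High-Low 2, at 79.6 FPKM, followed by 2xTrp 1, at 64.0 FPKM, whereas NPM1 and NOP58 were lowest in High-Low 2, at 159 and 3.06 FPKM. ATF3 also belongs to the amino acid stress response driven by ATF4, of which 6 of 12 other listed genes were tested. Their mean was lowest in High-Low 2, at -0.21, the library in which ATF3 was highest, and SESN2, a sestrin of that response, had its lowest level there, at 5.66 FPKM, and its highest in 2xTrp 1, at 14.7 FPKM. PSAT1, an enzyme of serine synthesis, was also lowest in High-Low 2, at 13.2 FPKM, whereas the factor ATF5 was lowest in High-Low 1 and highest in 2xTrp 1, at 1068 and 1620 FPKM. ASNS (picked out with its values in view) was highest in High-Low 2, at 52.6 FPKM. Of the tested genes on that list, only SESN2 and PSAT1 were lowest in High-Low 2. The mean of the 8 heat shock genes tested was 0.13, 0.08 and -0.36 in High-Low 1, 2 and 3 and 0.03, 0.00 and 0.13 in 2xTrp 1, 2 and 3. The co-chaperones DNAJB1 and BAG3 were highest in 2xTrp 1, at 98.0 and 128 FPKM, whereas the mitochondrial chaperonin HSPD1 was lowest there, at 27.6 FPKM, with 40.9 FPKM or more in every other library. The 7 tested glucocorticoid-responsive genes, which include PER1 and SGK1, had means of 0.16, 0.13 and -0.40 in High-Low 1, 2 and 3 and of 0.33, 0.01 and -0.24 in 2xTrp 1, 2 and 3. For 3 of these 7, High-Low 2 and 2xTrp 1 were the 2 highest libraries, against 12.3% of all genes tested. The same held for 1 of the 8 heat shock genes and 1 of the 6 amino acid stress genes. Of the 3 glucocorticoid-responsive genes, PER1 and SGK1 were already counted in the wider early response set. In High-Low 2, SGK1 and the clock gene PER1 were highest (46.2 and 41.6 FPKM) and the transcription factor KLF9 was lowest (4.63 FPKM, with 6.92 to 20.4 FPKM in the others). Of 12 inflammatory cytokines 2 were tested. CCL2, which attracts monocytes, was highest in High-Low 2, at 6.59 FPKM, and stood at 1.01 FPKM in 2xTrp 1. The chemokine CCL3L1 was lowest in High-Low 2, at 0.638 FPKM, and lay between 1.54 and 6.19 FPKM in the others.

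**Figure D3:**
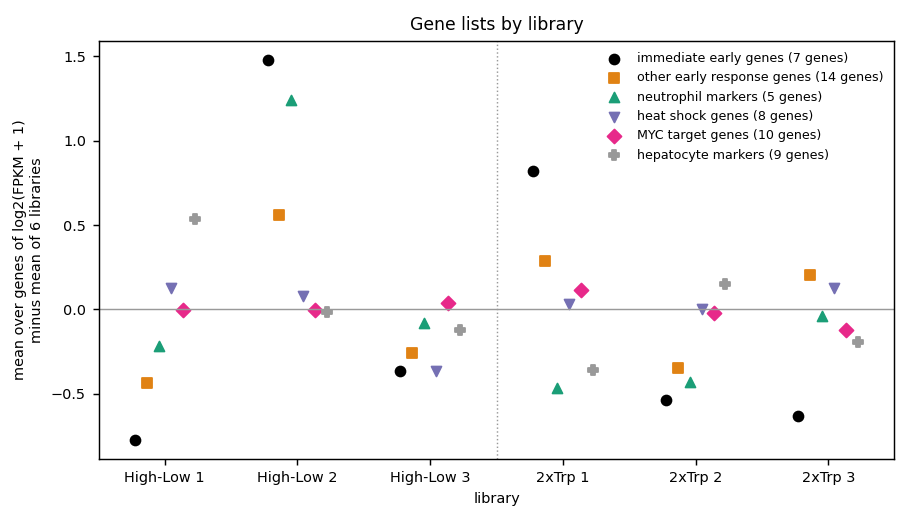
Mean over the tested genes of each list of log2(FPKM + 1) minus the gene's mean over the 6 libraries, with High-Low libraries left of 2xTrp libraries. The immediate early genes stand at 1.48 in High-Low 2 and 0.82 in 2xTrp 1, whereas the neutrophil markers stand at 1.24 in High-Low 2 and -0.47 in 2xTrp 1. The means of heat shock, MYC target and hepatocyte genes show no such pair of high libraries.

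The 8 genes with a symbol whose profile lay closest to the mean of the 7 members, by root mean square distance over the 6 libraries among 6525 candidates, were PLK3, KCNK5, INSIG1, MAFF, GALR3, ACE, NOCT and CHRD. Their distances ran from 0.285 to 0.391 on the log2 scale. The members' own distances, each taken to the mean of the other members instead, ran from 0.427 (DUSP1) to 1.28 (FOS). PLK3, a polo-like kinase that is itself quickly induced by growth factors, had 1.78, 8.10 and 2.74 FPKM in High-Low 1, 2 and 3 and 4.39, 2.23 and 2.13 FPKM in 2xTrp 1, 2 and 3. INSIG1, which restrains sterol synthesis, was the most abundant of the 8, at 99.4 FPKM in High-Low 2 and 81.8 FPKM in 2xTrp 1, with 24.4 to 52.2 FPKM in the others. NOCT, the rhythmic gene nocturnin, had the sharpest pair of high libraries, at 14.7 FPKM in High-Low 2 and 9.63 FPKM in 2xTrp 1 with at most 1.58 FPKM in any other. These genes were picked for their likeness over the same 6 libraries, and the likeness is a description.

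High-Low 2 and 2xTrp 1 differed in neutrophil and erythroid markers. They were close in the summed FPKM of macrophage, endothelial and stellate markers, though C1QA alone made up most of the macrophage sum. In bulk tissue, fewer cells of a type and less RNA per cell cannot be told apart. Hepatocyte markers were abundant in every library (9 of 10 with a row, 43352 to 66017 FPKM in sum in High-Low and 44836 to 60512 FPKM in 2xTrp) and did not go against the liver label. Of 10 neutrophil and granulocyte precursor markers 7 had a row, 5 were tested and none was at 0 throughout. All 5 were highest in High-Low 2. The neutrophil sum was 31.0, 100.5 and 38.0 FPKM in High-Low 1, 2 and 3 and 25.1, 29.7 and 35.8 FPKM in 2xTrp 1, 2 and 3, so 2xTrp 1 was lowest in neutrophil markers and high in immediate early genes. Macrophage markers (5 of 10 with a row) summed to 246, 444 and 316 FPKM in High-Low 1, 2 and 3 and to 413, 572 and 561 FPKM in 2xTrp 1, 2 and 3. C1QA (picked out with its values in view) gave 363 FPKM of the sum in High-Low 2 and 335 FPKM in 2xTrp 1. In these libraries MARCO stood at 19.7 and 6.12 FPKM and CSF1R at 9.91 and 18.1 FPKM. TIMD4 stood at 32.8 and 33.1 FPKM there, and CD68 at 18.5 and 20.8 FPKM. The endothelial sum (8 of 11 with a row) was 193 FPKM in High-Low 2, with 96.7 and 133 in the other High-Low libraries. It was 205 FPKM in 2xTrp 1, with 164 and 189 in the other 2xTrp libraries. Of the 193 FPKM, 106 came from EGFL7 alone (picked out with its values in view). Mean centred log2 values of these 8 genes were -0.52, -0.04 and -0.11 in High-Low 1, 2 and 3. In 2xTrp 1, 2 and 3 they were 0.41, -0.02 and 0.29. The stellate and fibroblast sum (8 of 10 with a row) was highest of its group in High-Low 2 and in 2xTrp 1. It was 148 FPKM in High-Low 2 (next 146) and 163 FPKM in 2xTrp 1 (next 159). By mean centred log2 value, High-Low 3 (0.14) stood above High-Low 2 (0.12) and 2xTrp 3 (0.27) above 2xTrp 1 (0.24). Erythroid markers (9 of 10 with a row) summed to 1817, 7200 and 4411 FPKM in High-Low 1, 2 and 3 and to 15894, 6172 and 15373 FPKM in 2xTrp 1, 2 and 3, so that 2xTrp 3, low in immediate early genes, was close to 2xTrp 1. FPKM totals ran from 956426 to 1230288, and the median ratio factors between libraries from 1.01 to 1.02. Genes at 1 FPKM or more were fewest of their groups in High-Low 2 (10392) and 2xTrp 1 (10353). Exact zeros were most numerous of their groups in High-Low 2 (10868, next 10372) and 2xTrp 1 (10910, next 10893). Mitochondrial genes took 5.83% of the total in High-Low 2 and 3.48% in 2xTrp 1, the lowest shares of their groups. The part of cell content or of these library values in the immediate early levels was not tested.

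For none of the 7 genes was a difference between the maternal diets found beyond the spread of the libraries. Of all 10901 genes tested, 1 passed the adjusted threshold in limma, and 136 genes (1.25%) were higher and 209 (1.92%) lower in High-Low when p was left unadjusted, at the same threshold. The groups did not overlap for 0 of the 7 members and for 7.18% of all genes. The log2 fold change, High-Low minus 2xTrp on log2(FPKM + 1), was positive for 5 members and negative for EGR1 and IER2, with a median of 0.62 over the 7 against -0.0038 over all genes tested. FOS averaged 61.1 ± 97.8 FPKM in High-Low and 11.6 ± 10.3 FPKM in 2xTrp (SD, n = 3 each), with a log2 fold change of 0.73 (SE 1.44) and an adjusted p of 0.998 in limma. EGR1 averaged 15.0 ± 8.29 FPKM in High-Low and 46.7 ± 48.5 FPKM in 2xTrp, with a log2 fold change of -1.07 (SE 0.88). For both genes the SD of the higher group exceeded its mean, as it did for DUSP1 and ATF3. DUSP1 averaged 143 ± 151 FPKM in High-Low and 74.4 ± 49.2 FPKM in 2xTrp, and MYC 58.5 ± 27.2 and 34.1 ± 18.4 FPKM in the same order of groups. ATF3 averaged 5.59 ± 5.71 FPKM in High-Low and 1.75 ± 0.694 FPKM in 2xTrp, JUNB 17.1 ± 7.04 and 16.6 ± 6.89, and IER2 22.6 ± 17.8 and 29.0 ± 16.2. All 7 had the same adjusted p of 0.998. The wider early response set had 11 positive and 12 negative log2 fold changes and a median of -0.03. In limma 0 of its 23 genes passed, and 2 had an unadjusted p under 0.05. These were DUSP4 (log2 fold change 0.56) and IER5L (-1.07), picked out with their values in view, and they were also the 2 whose groups did not overlap.

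**Figure D4:**
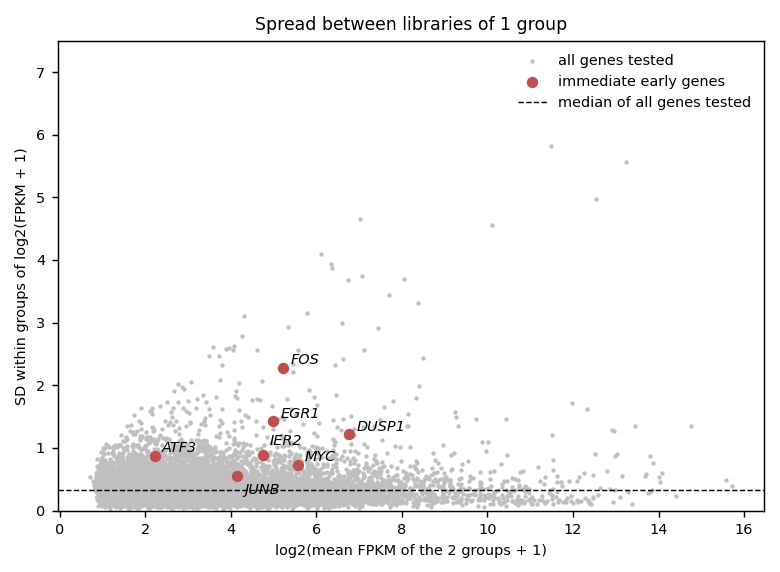
SD within groups of log2(FPKM + 1) against the log2 of the mean level for all 10901 genes tested (grey) and the 7 immediate early genes (red). All 7 lie above the dashed median of 0.32, and FOS has an SD of 2.27.

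The spread between libraries of one diet limited what could be seen. The SD within groups on the log2 scale had a median of 0.88 over the 7 members and 0.321 over all genes tested. FOS had an SD of 2.27, larger than in 99.7% of genes tested, and EGR1 and DUSP1, at 1.42 and 1.22, exceeded 99.0% and 98.5%. JUNB was the steadiest member, with an SD of 0.55, larger than in 82.4% of genes. The 95% interval of the log2 fold change was 2.62 wide in the median member and 1.21 in the median gene. It reached from -2.71 to 4.17 for FOS, so differences of 6.54-fold in one direction and of 18-fold in the other lay inside it. For EGR1 it reached from -3.12 to 0.98 and for DUSP1 from -1.14 to 2.38. A 2-fold higher level in High-Low lay inside the interval for 4 members (FOS, DUSP1, ATF3 and MYC) and a 2-fold lower level for 4 (FOS, EGR1, DUSP1 and IER2). JUNB had the narrowest interval, from -0.82 to 0.91.

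Single libraries set the direction of 3 members. Without High-Low 2 the log2 fold change turned to -0.96 for FOS, -0.25 for JUNB and -0.22 for DUSP1. Without 2xTrp 1 that of FOS was 1.36 and that of EGR1 was -0.19. With High-Low 2 and 2xTrp 1 both left out, a choice made after seeing the data, FOS stood at -0.33 with an interval from -1.64 to 0.98, and DUSP1 at 0.28 with an interval from -0.46 to 1.03. Without both, MYC stood at 0.85, against 0.80 with all libraries. ATF3 stood at 0.46 without both and at 0.29 without High-Low 2 alone, against 0.95 with all libraries. IER2 stood at -0.64 without both, and it was the 1 member of 7 with an unadjusted p under 0.05 in that fit (adjusted p = 0.465 in limma), where 1162 of all genes (10.7%) had one. Without High-Low 2 alone 1 of the 7 (again IER2) and 13% of all genes had one. With the mean level of the 7 genes entered as a covariate beside diet, 1 gene of 10901 passed the adjusted threshold (0.00917%), and 685 (6.28%) had an unadjusted p under 0.05. In that fit 0 of the 7 members passed, and IER2 (-0.67) and ATF3 (0.77) had an unadjusted p under 0.05, both with an adjusted p of 0.75 in limma. Each member is part of that covariate, so its own value in the fit is not independent of it. In that fit and in the fit without both libraries the 1 gene past the threshold was the unnamed mitochondrial feature Novel01392 (named for its result), which is also the 1 gene past it with all 6 libraries.

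**Figure D5:**
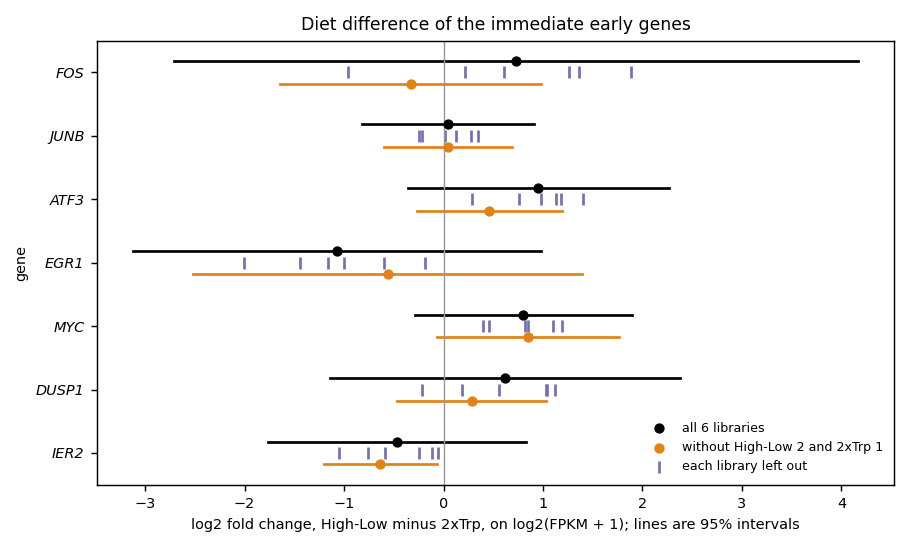
Log2 fold change, High-Low minus 2xTrp, of the 7 immediate early genes with its 95% interval, for all 6 libraries (black) and without High-Low 2 and 2xTrp 1 (orange), with ticks for each library left out in turn. The FOS interval spans -2.71 to 4.17 with all libraries and -1.64 to 0.98 without both, and its points lie on either side of 0.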

How the data were processed

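Groups and replicate numbers came from the sample titles. Trizol RNA went into Illumina TruSeq RNA libraries, per the labels' protocols. Tools named in the submitters' processing notes are TopHat2 2.0.12, Bowtie2 2.2.3 and HTSeq 0.6.1, with susScr3 as the assembly. How the levels were computed, from which annotation and with which strand setting, was not given in the sources used here. Each library has its own deposited table without a unit, taken to hold FPKM made by the authors, since values are fractional and column sums vary. Values do not step in whole reads. Depth is therefore unknown, and counting intervals are not given. A table of Ensembl identifiers named 11804 of 25322. No promoter, protein or transcript sequence was used here, and the planned motif search was not run.

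The 10901 genes that reached 1 FPKM in 3 or more libraries entered limma (version 3.58.1, R 4.3.3), run on log2(FPKM + 1) with a mean trend and robust estimation. Benjamini-Hochberg adjustment covered all 10901 (threshold 0.05), and intervals are 95%. Fold changes understate differences of low genes. Simulated data were used to test the limma script. The members and gene lists were chosen with earlier results of these data known. Named genes are the members, the 3 genes of widest range in each pathway list and the 8 of nearest profile, and exceptions are marked where named. Figures were drawn with matplotlib 3.10.9. Alternatives were other pseudocounts, filters and scalings, no robust estimation, a replicate block, the members' mean as a covariate, and leaving out libraries.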

Additional observations from a re-analysis of the deposited data

How the results depend on the processing

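The log2 fold changes of the 7 members kept their direction and stayed short of the threshold in 105 of 111 alternative values, with a lowest adjusted p of 0.379 in limma. Over the single libraries left out, they ran from -0.96 to 1.89 for FOS, -0.25 to 0.34 for JUNB, -2.01 to -0.19 for EGR1, -0.22 to 1.12 for DUSP1, -1.05 to -0.06 for IER2, 0.29 to 1.40 for ATF3 and 0.40 to 1.19 for MYC. JUNB also turned without 2xTrp replicate 2 (-0.21) and with the members' mean as a covariate (-0.067), and FOS without High-Low 2 and 2xTrp 1 together (-0.33). The causes were not tested. Under other pseudocounts and scalings and without single members, the mean centred level of the members ran from 1.10 to 1.70 in High-Low 2 and from 0.58 to 0.98 in 2xTrp 1, and in the other libraries it lay between -0.95 and -0.15.

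Members past the threshold numbered 0 under every alternative run. Genes higher in High-Low numbered 1, or 1 to 2 without single replicates, and genes lower numbered 0, but 1 under scaling to FPKM totals and under quantile normalization. At an unadjusted p under 0.05, 589 genes were higher and 573 lower without High-Low 2 and 2xTrp 1, against 136 and 209 with all libraries. High-Low 2 alone left out gave 623 higher and 789 lower, and 2xTrp 1 alone left out gave 130 and 150. The replicate block gave 1 gene higher and 0 lower. Deviations of same-numbered libraries had correlations across genes of -0.22, -0.01 and 0.03, and those of differently numbered libraries ran from -0.13 to 0.12. Whether same-numbered libraries shared a litter or batch was not tested. Quantile normalization and leaving out both libraries were chosen after seeing the data. ATF3 has no value under the filter at 5 FPKM. Depth behind single values is unknown.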
